A study of Mus musculus with 24 samples.

Results

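The 48 genes described here encode the proteins that copy nuclear DNA and supply its deoxynucleotides. They were taken by gene symbol from a list chosen with earlier results of these data known. All 48 were listed both among the 35275 genes counted in cultured cells and among the 54532 counted in tumors. D2A1 and D2.1 are BALB/c mouse mammary cancer lines that arose from the same D2 hyperplastic alveolar nodules. D2A1 is described as a proliferative line and D2.1 as a dormant one. In the study's cultures, however, both lines grew about equally fast until confluence, where D2.1 slowed. Ki67 in D2.1 tumors was low early and higher at a later time. Confluence of the sequenced cultures is not given here. RNA-seq covered 3 cultures of each line, 4 D2A1 and 4 D2.1 tumors from immunocompetent BALB/c mice, and 5 D2A1 and 5 D2.1 tumors from SCID-beige mice. The latter strain carries the Prkdc scid and Lyst bg mutations, so it lacks T and B cells and has defective NK cells, while other host cells remain. Tumors came from the mammary fat pad of female mice that had received 1000000 parental cells, and were collected at about 500 mm3. The study used mice of 8 to 12 weeks of age for tumor work, and age at collection is not given here. Collection was by size, and the study calls the D2.1 tumors later-stage. Time in the mouse may thus differ between the lines and cannot be told apart from the line. The tumor libraries hold RNA of whole tumors, so fewer tumor cells and less RNA per cell cannot be told apart. Each line is represented by 1 cell line, and a difference between the lines is a difference between these lines, not between dormant and proliferative cells in general.

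Before DNA can be copied, the origin recognition complex (Orc1 to Orc6), Cdc6 and Cdt1 load the MCM helicase, Mcm2 to Mcm7, onto each origin, a step called licensing that geminin (Gmnn) blocks by binding Cdt1. The kinase Cdc7 with its regulator Dbf4, together with Mcm10, then helps Cdc45 and the GINS complex to join the helicase and start unwinding. DNA polymerase alpha with its primase lays down primers, the clamp loader (Rfc1 to Rfc5) places the sliding clamp PCNA, and polymerases delta and epsilon extend the strands, while Fen1 and Lig1 join Okazaki fragments. Ribonucleotide reductase, built from the Rrm1 and Rrm2 subunits, and thymidylate synthase (Tyms) make the deoxynucleotides. Many of these genes are transcribed in late G1 and S phase by E2F factors, which are held back by the pocket proteins of the retinoblastoma family in cells that do not divide.

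The promoters of these genes are shown because E2F motifs are shared by many of them. RefSeq promoter sequences (GRCm38.p6, from 250 bases before to 50 after each annotated start) matched 40 of the 48 genes, and Gmnn, Mcm4, Gins1, Gins2, Gins4, Prim2, Pole and Rfc2 had no entry. One of the letters TTTCGCGC, TTTGGCGC, TTTCCCGC or TTTGCCGC, on either strand, was present in 16 of the 40 (40.0%), against 704 of 27025 genes with a promoter (2.60%). The motif was in 4 of 5 MCM core genes, in 4 of 8 licensing genes and in 4 of 7 polymerase genes, but in 0 of 3 deoxynucleotide genes. The cell cycle homology region, searched as TTTGAA or TTCGAA on either strand, was in 10 of the 40 (25%) and in 21.7% of all promoters, whereas 12 of 16 mitosis genes (75.0%) held it. The CCAAT box, searched as CCAAT on either strand, was in 24 of the 40 (60.0%) and in 41.1% of all promoters. A match of letters is a description and does not show that a factor binds there. The 250 bases before the RefSeq start are given for 5 genes that hold E2F motifs, with the motif in capitals on the strand of the gene, and for Rrm2, which differed most between the tumors and holds none in this window.
Cdc6 chr11:98907901-98908150, plus strand: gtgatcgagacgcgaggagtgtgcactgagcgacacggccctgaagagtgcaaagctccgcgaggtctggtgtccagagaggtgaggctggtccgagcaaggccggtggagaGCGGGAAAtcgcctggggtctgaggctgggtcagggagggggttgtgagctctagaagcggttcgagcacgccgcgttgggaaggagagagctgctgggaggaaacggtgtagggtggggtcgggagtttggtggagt
Orc1 chr4:108579204-108579453, plus strand: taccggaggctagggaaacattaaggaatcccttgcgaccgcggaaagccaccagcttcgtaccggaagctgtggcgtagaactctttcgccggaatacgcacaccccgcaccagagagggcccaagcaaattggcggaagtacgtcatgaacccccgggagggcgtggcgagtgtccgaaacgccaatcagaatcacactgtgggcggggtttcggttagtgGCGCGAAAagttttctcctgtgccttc
Mcm5 chr8:75109259-75109508, plus strand: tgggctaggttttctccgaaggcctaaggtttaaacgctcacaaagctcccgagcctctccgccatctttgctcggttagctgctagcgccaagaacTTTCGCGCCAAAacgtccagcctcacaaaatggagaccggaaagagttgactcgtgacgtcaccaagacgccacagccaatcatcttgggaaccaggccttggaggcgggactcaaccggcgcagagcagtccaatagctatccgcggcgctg
Mcm6 chr1:128359706-128359955, minus strand: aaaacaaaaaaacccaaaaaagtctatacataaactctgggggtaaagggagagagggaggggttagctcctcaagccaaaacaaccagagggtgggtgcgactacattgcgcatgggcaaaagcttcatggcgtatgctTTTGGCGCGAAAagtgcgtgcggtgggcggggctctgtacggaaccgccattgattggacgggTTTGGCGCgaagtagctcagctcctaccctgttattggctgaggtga
Pola1 chrX:93632156-93632405, minus strand: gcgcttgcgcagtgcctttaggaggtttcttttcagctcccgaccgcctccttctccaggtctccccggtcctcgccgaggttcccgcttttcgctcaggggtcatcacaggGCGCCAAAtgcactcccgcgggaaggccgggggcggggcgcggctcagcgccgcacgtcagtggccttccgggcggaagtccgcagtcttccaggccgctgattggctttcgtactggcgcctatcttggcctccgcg
Rrm2 chr12:24708004-24708253, plus strand: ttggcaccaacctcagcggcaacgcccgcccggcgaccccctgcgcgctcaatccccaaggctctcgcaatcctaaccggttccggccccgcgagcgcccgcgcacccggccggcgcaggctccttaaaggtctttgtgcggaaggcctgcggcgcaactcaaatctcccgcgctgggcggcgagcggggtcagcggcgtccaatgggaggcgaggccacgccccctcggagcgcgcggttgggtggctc
The motif of Cdc6 and that of Pola1 begin 138 bases before that start, and that of Orc1 27 bases before it. Mcm5 holds 2 motifs and Mcm6 holds 3, of which 2 in each gene overlap on opposite strands. RefSeq and GENCODE starts differ, and the window of Cdc6 lies inside its GENCODE gene, while the windows of Orc1 and Rrm2 run past the GENCODE start. The motifs of Cdc6 and Orc1 thus lie after the GENCODE start. All 48 genes are protein-coding, and each is a row of gene-level counts. On GRCm38 (GENCODE M21), Rrm2 lies at chr12:24708241-24714146, plus strand, Tyms at chr5:30058202-30073617, minus strand, Pola2 at chr19:5940542-5964202, minus strand, Cdc6 at chr11:98907801-98923940, plus strand, Mcm7 at chr5:138164583-138172422, minus strand, Orc6 at chr8:85299632-85308278, plus strand and E2f2 at chr4:136172394-136196057, plus strand.

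Between 16837260 and 24818234 reads per library were assigned to genes in cultures, and between 13566949 and 18355153 in tumors. A count of 3 corresponds to 0.121 to 0.221 CPM (the count of a gene over the TMM-scaled library size of its table, times 1000000). All 48 genes passed the expression filter in all 8 comparisons. Several host and cell type markers moved with the line. The summed level of 6 fibroblast markers was 6659 to 15250 CPM in D2.1 tumors and 1509 to 3658 CPM in D2A1 tumors, but cultured D2.1 cells also held 1915 to 2734 CPM against 128 to 137 CPM in cultured D2A1 cells. Among these, Dcn had at most 2 counts and Lum at most 1 count in any culture, so these 2 markers were near 0 in both lines before implantation. The 6 endothelial markers summed to 63.5 to 136 CPM in D2.1 tumors and 208 to 277 CPM in D2A1 tumors. The 8 T cell markers summed to 74.0 to 192 CPM in D2.1 tumors in BALB/c mice, 9.16 to 25.6 CPM in D2A1 tumors in BALB/c mice and 4.35 to 22.7 CPM in SCID-beige hosts. In BALB/c mice, 6 of 6 fibroblast and 8 of 8 T cell markers were called higher and 4 of 6 endothelial markers lower in D2.1 tumors, and in SCID-beige mice 5 of 6 fibroblast markers were higher and 5 of 6 endothelial markers lower. Their part in the results for tumors was not tested. D2.1 tumor replicate 1 in BALB/c mice held milk protein transcripts (391 CPM over 5 genes) and replicate 4 skin keratinocyte transcripts (123 CPM over 5 genes), and results in BALB/c mice are also given without these 2 libraries. Each D2.1 tumor of BALB/c mice also held adipocyte markers (29.5 to 637 CPM) and skeletal muscle markers (36.3 to 358 CPM). In D2A1 tumors of BALB/c mice these were 77.35 to 343 CPM and 7.49 to 68.95 CPM. Muscle markers reached 270 CPM in D2.1 tumors of SCID-beige mice.

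In culture, 19 of the 48 genes were lower in D2.1 than in D2A1 cells and 0 were higher, against 20.7% of the 12489 genes tested called lower and 24.2% called higher (edgeR quasi-likelihood test, adjusted p under 0.05). With DESeq2, 22 were lower and 0 higher, and of all 12489 genes 2817 were lower and 3174 higher. The median log2 fold change (D2.1 over D2A1) over these genes was -0.35, while that of all genes tested was -0.02, and 43 of the 48 values were negative. The polymerase and primase genes (5 of 9 lower, median -0.64) and the helicase activation genes (5 of 8, median -0.57) held most of the differences, while 4 of 9 licensing genes, 1 of 6 MCM core genes, 2 of 11 clamp, loader, RPA and Okazaki fragment genes, 1 of 3 deoxynucleotide genes and E2f1 were lower. The largest fall was that of Pola1, the catalytic subunit of polymerase alpha. Pola1 stood at 134, 129 and 154 CPM in D2A1 cultures and at 60.05, 70.2 and 59.9 CPM in D2.1 cultures (log2 fold change -1.13, SE 0.13, edgeR adjusted p = 0.00015). Rrm2, the regulatory subunit of ribonucleotide reductase, came next to it. Rrm2 was counted at 307, 298 and 198 CPM in D2.1 cultures, against 597, 589 and 503 CPM in D2A1 cultures, and the groups did not overlap (log2 fold change -1.07, SE 0.19, edgeR adjusted p = 0.0019). Orc2, a subunit of the origin recognition complex, had a log2 fold change of -1.06 (SE 0.21, edgeR adjusted p = 0.0033), but 29.8% of its exonic bases are shared with Nif3l1 on the opposite strand. Pola2, the second subunit of polymerase alpha, was lower as well. D2A1 cultures held 115, 126 and 104 CPM of Pola2 and D2.1 cultures 69.6, 65.7 and 53.99 CPM (log2 fold change -0.87, SE 0.14, edgeR adjusted p = 0.0011). Pole2 and Pole, both of polymerase epsilon, had log2 fold changes of -0.88 ± 0.14 and -0.64 ± 0.12 (SE), and Prim2, the large primase subunit, -0.71 ± 0.14 (edgeR adjusted p = 0.00089, 0.0024 and 0.0027).

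Other genes of the set lay closer together in the cultured lines or missed the threshold. For Mcm2, values were 393, 406 and 308 CPM in D2A1 cultures and 300.3, 310.2 and 218.8 CPM in D2.1 cultures, and the groups overlapped (log2 fold change -0.42, SE 0.18, edgeR adjusted p = 0.086). For Mcm5, D2.1 cultures had 365, 389.9 and 279.9 CPM and D2A1 cultures 434, 462 and 301 CPM (log2 fold change -0.21, SE 0.20, edgeR adjusted p = 0.42). Mcm6 was the 1 MCM subunit called, with a log2 fold change of -0.83 (SE 0.17, edgeR adjusted p = 0.0037). Rrm1, the large subunit of ribonucleotide reductase, did not follow Rrm2: Rrm1 stood at 315, 312 and 276 CPM in D2A1 cultures and at 330.4, 372 and 278 CPM in D2.1 cultures (log2 fold change 0.12, SE 0.14, edgeR adjusted p = 0.54). For Tyms, the D2A1 cultures held 176, 185 and 139.5 CPM and the D2.1 cultures 135, 129.8 and 90.3 CPM, without overlap, but the difference missed the threshold (log2 fold change -0.50, SE 0.18, edgeR adjusted p = 0.052). For Pcna, values were 418, 442 and 330.4 CPM in D2A1 cultures and 381, 329 and 255 CPM in D2.1 cultures (log2 fold change -0.30, SE 0.18, edgeR adjusted p = 0.21). Cdc6, the loader that brings MCM to the origin complex, had no overlap and also missed the threshold. Cdc6 was counted at 54.9, 55.7 and 41.2 CPM in D2.1 cultures, against 68.3, 65.5 and 56.3 CPM in D2A1 cultures (log2 fold change -0.32, SE 0.15, edgeR adjusted p = 0.12). Cdt1, its partner in loading, was called although the groups overlapped: D2A1 cultures held 204, 206 and 140.4 CPM of Cdt1 and D2.1 cultures 142, 129 and 94.2 CPM (log2 fold change -0.59, SE 0.20, edgeR adjusted p = 0.041). Orc1 overlapped fully: Orc1 stood at 16.02, 18.4 and 13.1 CPM in D2A1 cultures and at 17.7, 17.6 and 9.05 CPM in D2.1 cultures (log2 fold change -0.10, SE 0.27, edgeR adjusted p = 0.79). In both lines, replicate 3 was the lowest culture for most genes, for 42 of 48 in D2.1 and 40 of 48 in D2A1, and replicates with the same number deviated together (r = 0.184 to 0.491 across genes). With the replicate number as a block, 29 of the 48 genes were called, of which 28 were lower and Rfc3 was higher. The block also raised the calls over all genes tested, to 29.7% lower and 30.7% higher. Among the 48 it brought in Cdc6 (edgeR adjusted p = 0.011), Mcm2 (0.001), Mcm3 (8.6e-05), Pcna (0.012) and Tyms (0.00026), as well as Cdc45, Gins1, Pold1, Rfc3 and Rfc5. The labels do not say whether cultures were grown separately, so the p-values measure the spread between these samples, which may be technical. Counts of D2A1 cultures 1 and 2 were closer to each other than those of any other pair within a group. With 3 cultures against 3, an exact permutation test of 1 gene cannot go below p = 0.10.

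**Figure D1:**
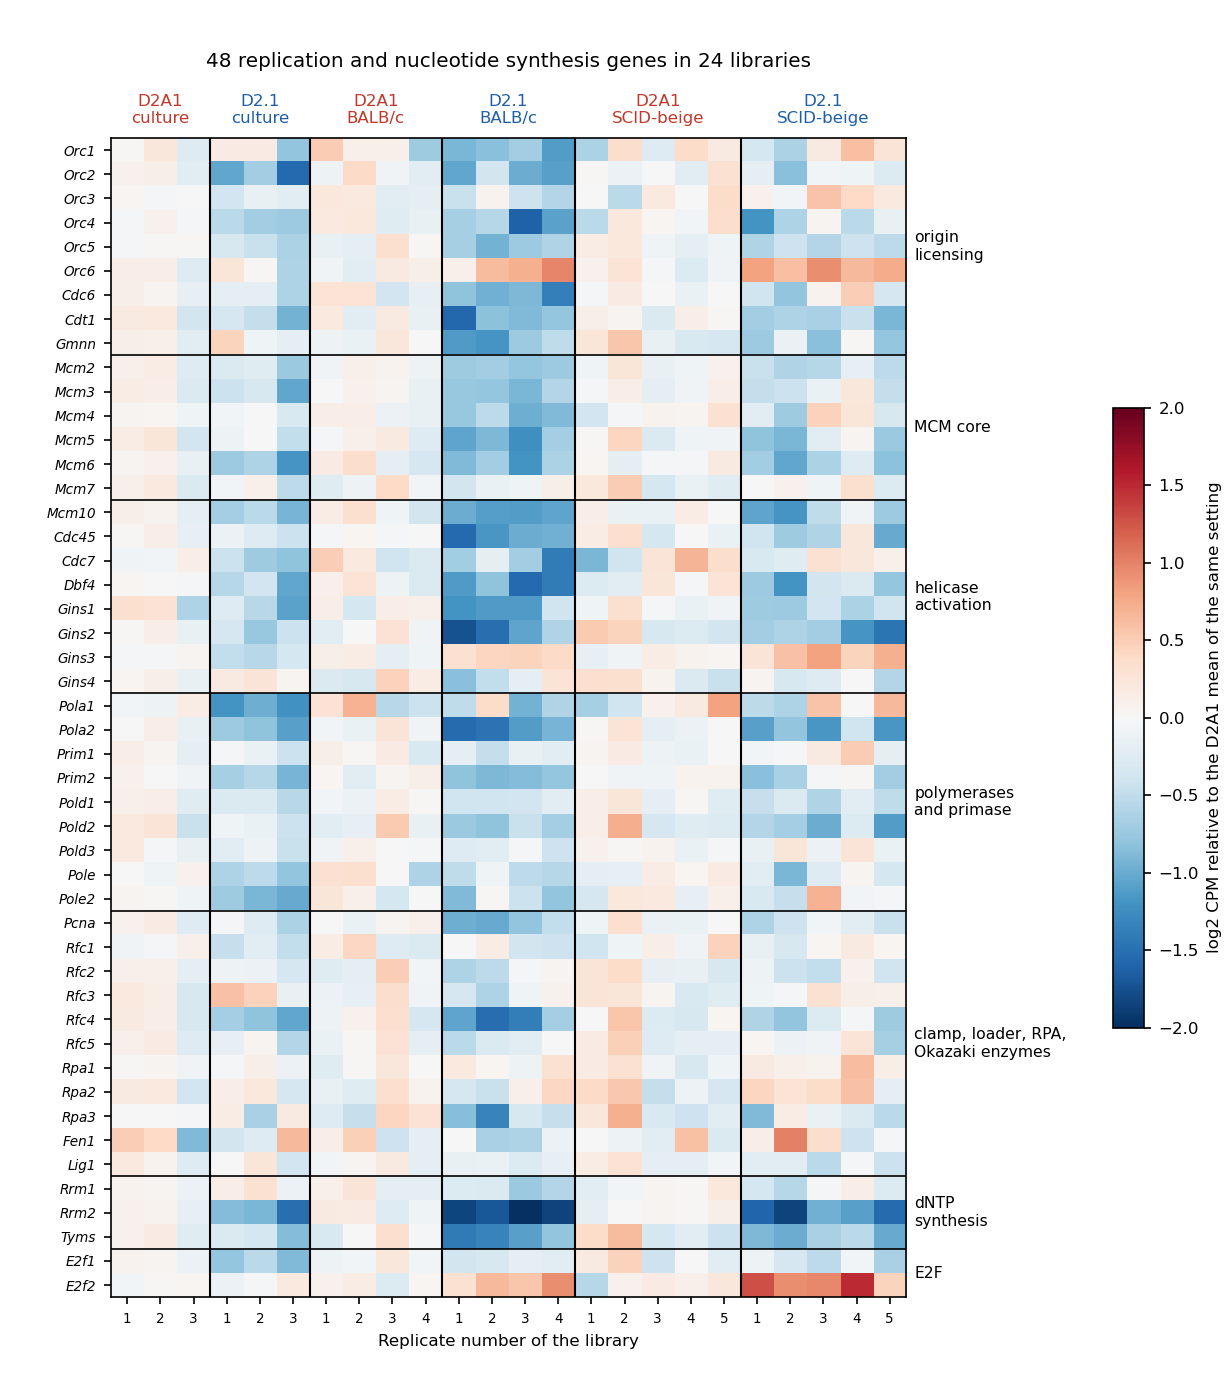
Heat map of the log2 CPM of 48 genes (rows, by role) in 24 libraries (columns, by group and replicate number), each relative to the mean of the D2A1 libraries of the same setting, with blue for lower and red for higher. Most rows are blue in the 4 D2.1 tumors of BALB/c mice, Orc6, Gins3 and E2f2 are red in most D2.1 tumors, and replicate 3 is the palest or bluest culture of each line.

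In BALB/c tumors, 24 of the 48 genes were lower in D2.1 than in D2A1 and 2 were higher, against 15.8% of the 14953 genes tested called lower and 16.8% called higher (edgeR, adjusted p under 0.05). Their median log2 fold change was -0.72, that of all genes -0.02, and 44 of the 48 values were negative. Without D2.1 replicates 1 and 4, 20 of 48 were lower and 0 higher, and of 15720 genes tested 1599 were lower and 1751 higher. The replicate numbers were treated as pairs here too (r = 0.1004 to 0.491), although D2.1 replicates 1, 3 and 4 correlated more with a D2A1 library of another number. The block, which rests on this pairing, raised the calls to 30 of 48 lower and 2 higher, and those over all genes to 24.8% lower and 22.8% higher. It brought in Pola1 (edgeR adjusted p = 0.036), Cdc7 (0.016), Pold1 (0.022), Pole (0.048), Rpa3 (0.0036) and Rrm1 (0.0031). With a GC term per library added to the block, that is, an estimated trend of log counts with gene GC content, 0 of 48 and 439 of 14953 genes were called, with 2 residual degrees of freedom, a median log2 fold change of -0.63 and a median SE of 0.59 against 0.20 without either term. With the GC term but no block, 29 were lower and 2 higher, and of all 14953 genes 3539 were lower and 3558 higher, also more than without the term.

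Of the licensing genes, 7 of 9 were lower and 1 was higher (median -0.87). Cdc6 had the largest change of the group. Cdc6 was counted at 12.9, 11.6, 12.1 and 8.73 CPM in D2.1 tumors, against 27.5, 27.5, 17.3 and 20.1 CPM in D2A1 tumors, so that no D2.1 tumor reached the lowest D2A1 tumor (log2 fold change -1.02, SE 0.23, edgeR adjusted p = 0.0059, exact permutation p = 0.0286, the smallest possible with 4 against 4). For Cdt1, D2.1 tumors had 23.4, 39.2, 37.5 and 40.4 CPM and D2A1 tumors 79.3, 59.6, 78.7 and 62.2 CPM, again without overlap (log2 fold change -0.99, SE 0.20, edgeR adjusted p = 0.0042). Gmnn, the inhibitor of Cdt1, moved the same way, with a log2 fold change of -0.87 (SE 0.21, edgeR adjusted p = 0.0086). Orc1, the subunit that varies most through the cell cycle, was sparse. D2A1 tumors held 9.33, 7.05, 6.999 and 3.94 CPM of Orc1 and D2.1 tumors 3.43, 3.61, 4.002 and 2.95 CPM, and D2A1 replicate 4 lay within the range of D2.1 (log2 fold change -0.96, SE 0.31, edgeR adjusted p = 0.037). The call of Orc1 was kept in 1 of the 8 fits that left out a library. Orc3 had the smallest difference of the group and was not called. Orc3 stood at 36.7, 36.2, 27.4 and 27.9 CPM in D2A1 tumors and at 23.3, 33.3, 23.8 and 21 CPM in D2.1 tumors (log2 fold change -0.33, SE 0.20, edgeR adjusted p = 0.23). Orc2, Orc4 and Orc5 had log2 fold changes of -0.86 ± 0.22, -0.94 ± 0.24 and -0.74 ± 0.18 (SE), all called. Orc6, which joins the origin complex loosely, went the other way. Orc6 was counted at 49.02, 70.9, 74.7 and 89.9 CPM in D2.1 tumors, against 43.8, 39.04, 51.8 and 49.5 CPM in D2A1 tumors, with 1 D2.1 tumor inside the D2A1 range (log2 fold change 0.63, SE 0.20, edgeR adjusted p = 0.032). Of its exonic bases, 6.93% are shared with Vps35 on the opposite strand.

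Of the MCM helicase core, 5 of 6 genes were lower (median -0.76). For Mcm5, the D2A1 tumors held 144, 158, 167 and 123 CPM and the D2.1 tumors 70.3, 78.7, 62.4 and 91.8 CPM (log2 fold change -0.96, SE 0.16, edgeR adjusted p = 0.0014). The 4 D2.1 values of Mcm2 were close together: D2A1 tumors held 138, 156, 152 and 135 CPM of Mcm2 and D2.1 tumors 88.5, 89.3, 85.2 and 87.9 CPM (log2 fold change -0.72, SE 0.12, edgeR adjusted p = 0.0013). Mcm3, Mcm4 and Mcm6 had log2 fold changes of -0.75 ± 0.14, -0.78 ± 0.16 and -0.86 ± 0.19 (SE). Mcm7 was the exception. Mcm7 stood at 119, 131, 184 and 135 CPM in D2A1 tumors and at 109, 127, 132 and 153 CPM in D2.1 tumors, and the groups overlapped (log2 fold change -0.12, SE 0.17, edgeR adjusted p = 0.63). The exons of Mcm7 share 12.6% of their bases with neighbors that include Ap4m1 and Cops6 on the opposite strand, and whether counting used the strand is not given in the sources used here. Of the helicase activation genes, 5 of 8 were lower (median -1.02). The largest change was that of Dbf4, the regulatory subunit of Cdc7 kinase. Dbf4 was counted at 34.5, 43.01, 25.7 and 28.6 CPM in D2.1 tumors, against 81.3, 91.5, 70.3 and 61.9 CPM in D2A1 tumors (log2 fold change -1.20, SE 0.20, edgeR adjusted p = 0.0013). Cdc45, Mcm10, Gins1 and Gins2, which join or activate the helicase, had log2 fold changes of -1.15 ± 0.17, -1.09 ± 0.19, -0.94 ± 0.26 and -1.18 ± 0.27 (SE), though 67.3% of the exonic bases of Gins2 are shared with Gse1. The other 2 GINS subunits were not called. For Gins4, values were 38.01, 37.4, 63.8 and 51.7 CPM in D2A1 tumors and 25.9, 32.9, 41.2 and 56.5 CPM in D2.1 tumors (log2 fold change -0.28, SE 0.26, edgeR adjusted p = 0.45). Each D2.1 value of Gins3 lay above each D2A1 value, 13.6, 14.8, 14.96 and 14.4 CPM against 11.9, 12.1, 9.65 and 10.4 CPM, but the difference missed the threshold (log2 fold change 0.40, SE 0.19, edgeR adjusted p = 0.13).

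Fewer polymerase genes were called, 3 of 9 lower (median -0.45). For Pola2, D2.1 tumors had 23.6, 24.6, 31.7 and 35.96 CPM and D2A1 tumors 66.5, 62.4, 82.05 and 65.8 CPM (log2 fold change -1.25, SE 0.19, edgeR adjusted p = 0.00057). Prim2 and Pold2, a subunit of polymerase delta, had log2 fold changes of -0.84 ± 0.16 and -0.69 ± 0.19 (SE). Pold3, another subunit of polymerase delta, had the smallest difference of these 9 genes. D2A1 tumors held 31.2, 35.3, 33.3 and 32.2 CPM of Pold3 and D2.1 tumors 27.5, 28.01, 32.4 and 24.8 CPM (log2 fold change -0.22, SE 0.15, edgeR adjusted p = 0.31). Pola1, the gene with the largest fall in culture, varied widely among tumors of a line. Pola1 stood at 40.9, 54.1, 22.9 and 24.9 CPM in D2A1 tumors and at 23.5, 43.4, 17.3 and 22.2 CPM in D2.1 tumors (log2 fold change -0.42, SE 0.35, edgeR adjusted p = 0.39, and 0.036 with the replicate block, where it was called lower). That block rests on a pairing by replicate number that the labels do not state. Of the 11 clamp, loader, RPA and Okazaki fragment genes, Pcna and Rfc4 were lower (median of the group -0.25). For Pcna, the D2A1 tumors held 183, 169, 191 and 197 CPM and the D2.1 tumors 94.2, 91.8, 107 and 131 CPM (log2 fold change -0.80, SE 0.15, edgeR adjusted p = 0.0023). For Rfc4, a subunit of the clamp loader, values were 25.03, 28.5, 33.9 and 21.1 CPM in D2A1 tumors and 12.8, 9.28, 10.2 and 16.6 CPM in D2.1 tumors (log2 fold change -1.15, SE 0.24, edgeR adjusted p = 0.0044). Of the exonic bases of Rfc4, 12.7% are shared with Eif4a2 on the opposite strand. The other loader subunits Rfc1, Rfc2, Rfc3 and Rfc5 had log2 fold changes from -0.27 ± 0.22 to -0.17 ± 0.21 (SE), none called. Rpa2, of the single-strand binding protein RPA, overlapped between the lines. Rpa2 was counted at 22.7, 21.02, 30.7 and 38.1 CPM in D2.1 tumors, against 25.7, 24.1, 36.02 and 30.1 CPM in D2A1 tumors (log2 fold change -0.04, SE 0.23, edgeR adjusted p = 0.92). Fen1 was counted at 1.93 to 4.33 CPM in these 8 tumors, and 84.2% of its exonic bases are shared with other genes, so its value is uncertain.

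Rrm2 had the largest difference of all 48 genes between the tumors. D2A1 tumors held 142, 140.1, 105 and 118 CPM of Rrm2 and D2.1 tumors 34.98, 38.7, 30.4 and 34.5 CPM, 3.63-fold lower in D2.1 (log2 fold change -1.86, SE 0.16, edgeR adjusted p = 1.6e-05). Tyms was lower by 2.21-fold. Tyms stood at 70.5, 87.7, 110.3 and 84.9 CPM in D2A1 tumors and at 32.8, 34.6, 41 and 50.7 CPM in D2.1 tumors (log2 fold change -1.15, SE 0.19, edgeR adjusted p = 0.0014). For Rrm1, D2.1 tumors had 105, 103, 75.5 and 84.5 CPM and D2A1 tumors 136, 151, 112 and 113 CPM, without overlap (log2 fold change -0.47, SE 0.17, edgeR adjusted p = 0.052, and 0.0031 with the replicate block). The labels do not state the pairing behind that block. Of the 2 E2F activators, E2f2 was called higher and E2f1 was not called. For E2f1, the D2A1 tumors held 68.4, 70.7, 86.2 and 71.02 CPM and the D2.1 tumors 57.2, 58.97, 65.1 and 63.1 CPM, each D2.1 value below each D2A1 value but the gene not called (log2 fold change -0.27, SE 0.14, edgeR adjusted p = 0.17). For E2f2, values were 15.5, 16.1, 12.1 and 14.9 CPM in D2A1 tumors and 18.1, 22.8, 21.5 and 27.9 CPM in D2.1 tumors (log2 fold change 0.63, SE 0.20, edgeR adjusted p = 0.033), higher in every D2.1 tumor. The calls of Orc6 and E2f2 were kept in 3 and in 1 of the 8 fits that left out 1 library, whereas 21 of the 26 calls, all of them lower in D2.1, were kept in all 8.

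**Figure D2:**
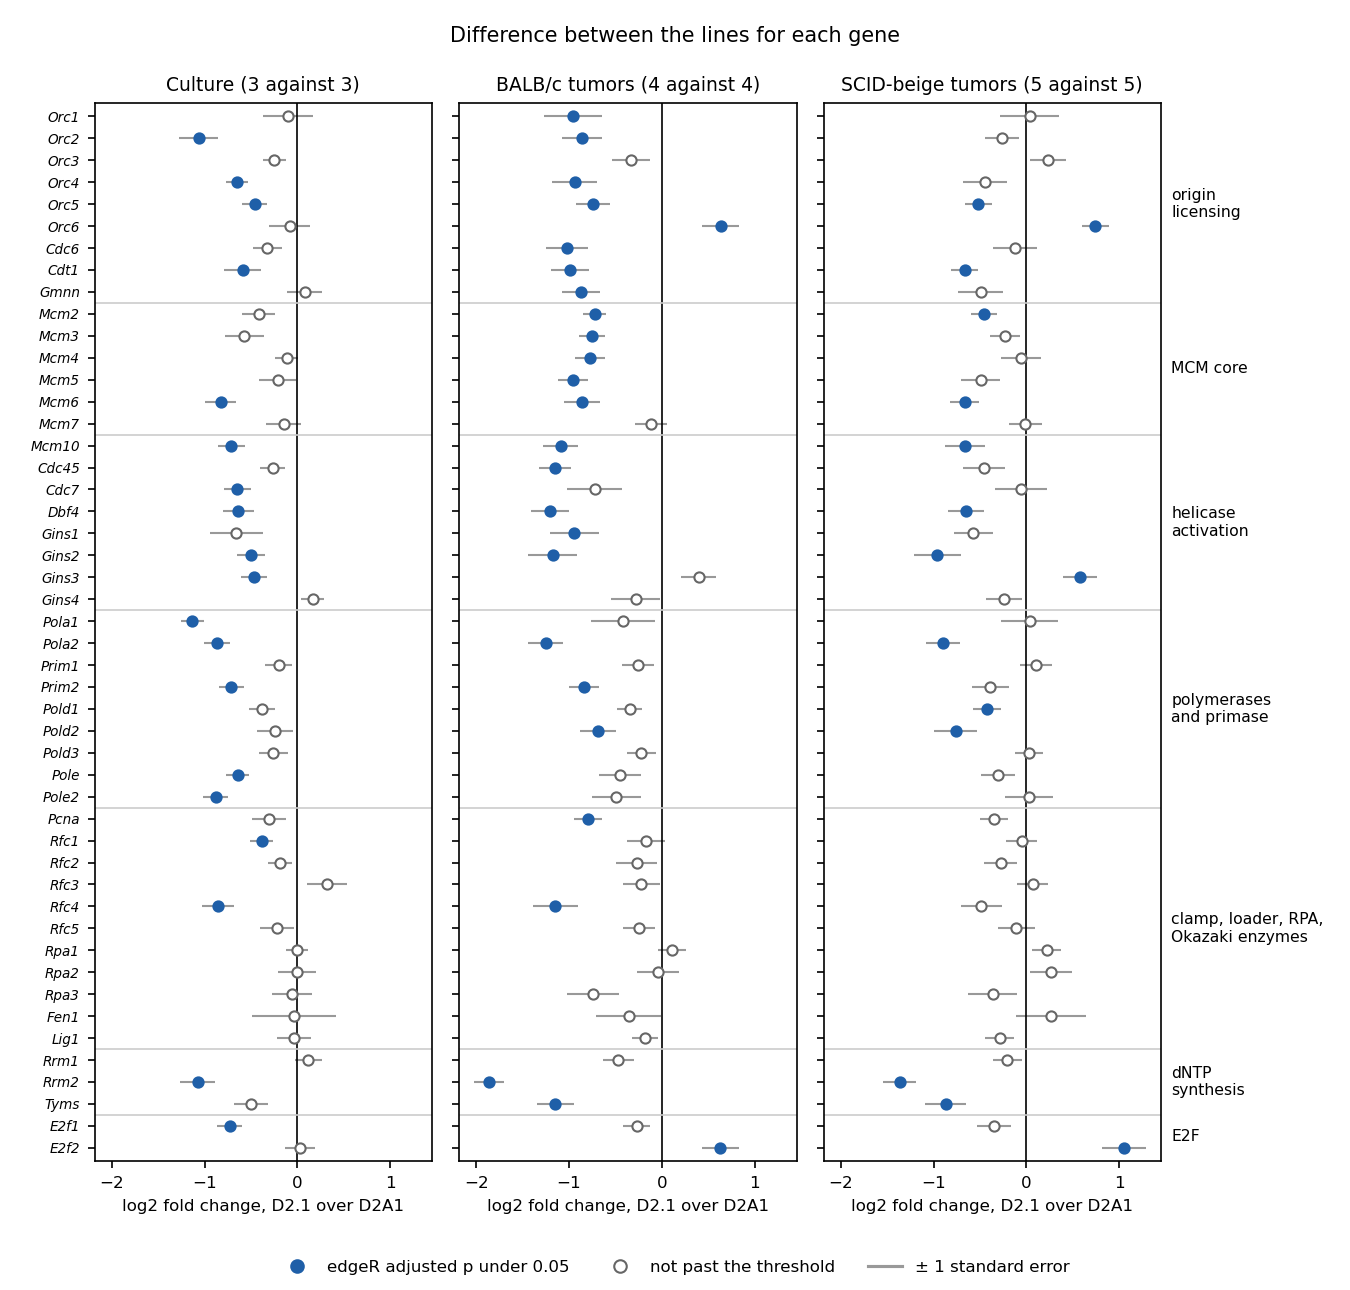
Fitted log2 fold change of D2.1 over D2A1 (x axis) with 1 standard error for each of 48 genes (y axis, by role) in culture, in BALB/c tumors and in SCID-beige tumors, with filled points for an edgeR adjusted p under 0.05. Filled points left of 0 number 19, 24 and 12, and Rrm2 is the leftmost point in both tumor panels.

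**Figure D3:**
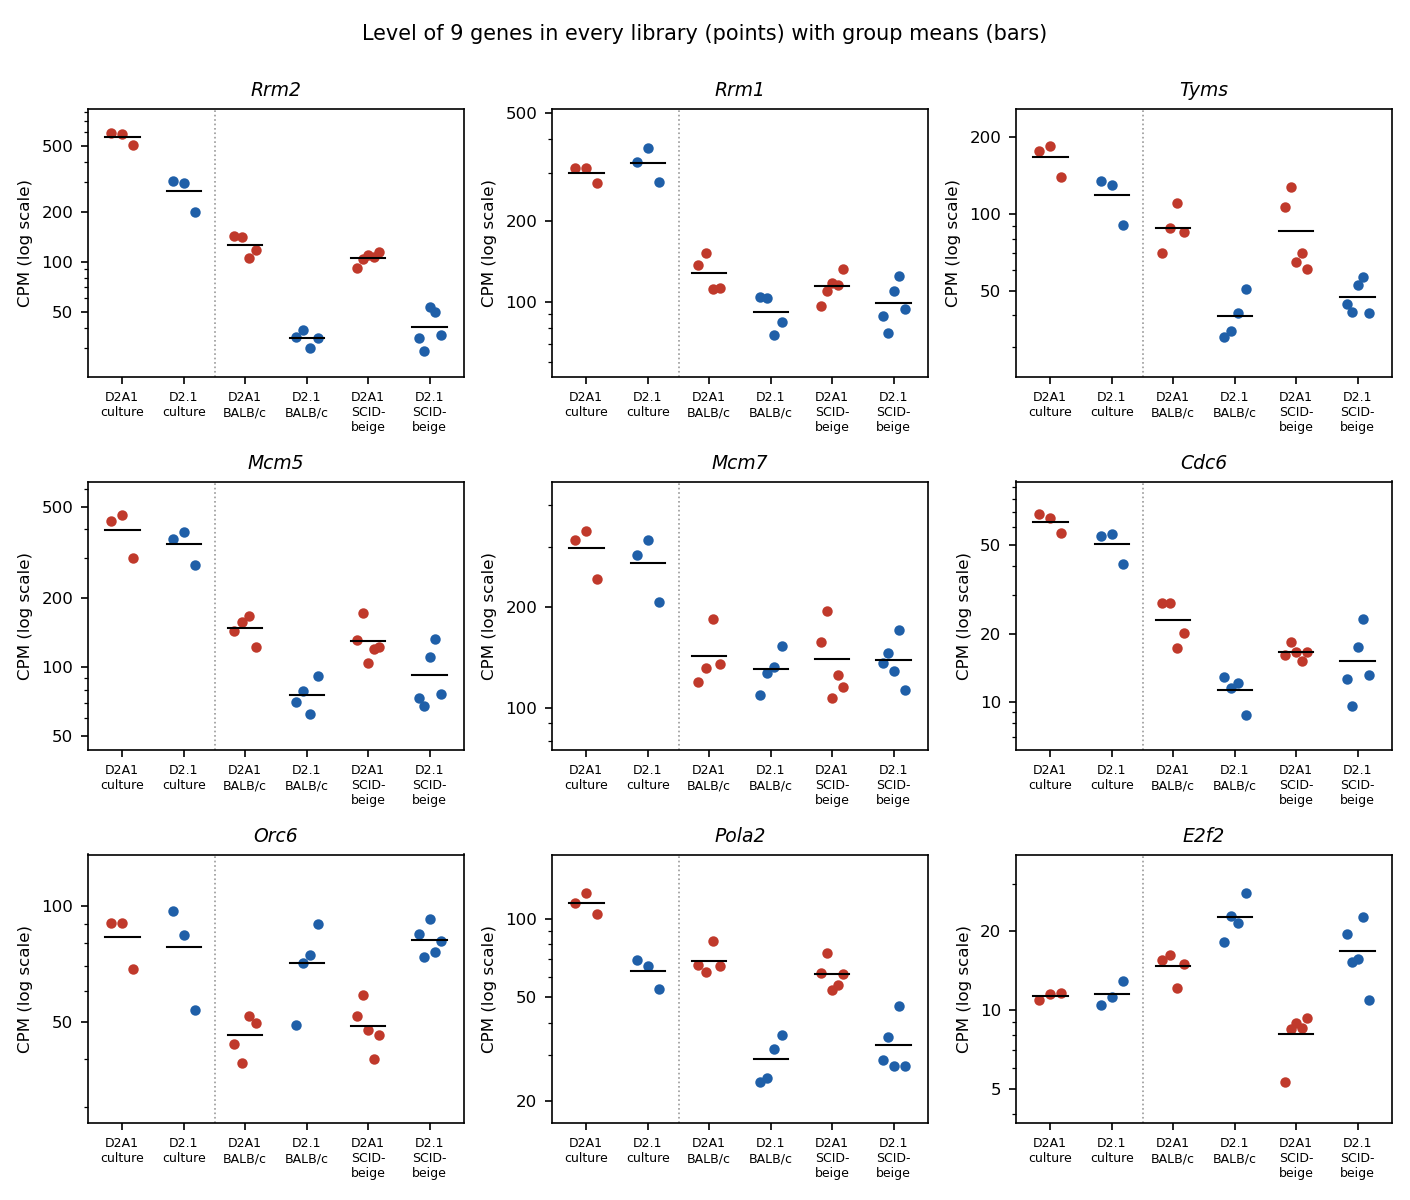
CPM (y axis, log scale) of 9 genes in each of the 24 libraries, in red for D2A1 and blue for D2.1, with bars at the group means and a dotted line between the culture and tumor tables. Rrm2, Tyms and Pola2 are lower in every D2.1 tumor than in any D2A1 tumor of the same host, Mcm7 and Rrm1 overlap in SCID-beige mice, and Orc6 and E2f2 are higher in D2.1 tumors of SCID-beige mice.

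In SCID-beige tumors, 12 of the 48 genes were lower in D2.1 and 3 were higher, against 14.8% of the 14355 genes tested called lower and 17.2% called higher (edgeR, adjusted p under 0.05). Their median log2 fold change was -0.28, that of all genes 0.02, and 35 of the 48 values were negative. The fall was again led by Rrm2. Rrm2 was counted at 34.8, 28.96, 53.5, 49.6 and 36.1 CPM in D2.1 tumors, against 91.4, 104, 109, 107 and 114 CPM in D2A1 tumors, without overlap (log2 fold change -1.37, SE 0.18, edgeR adjusted p = 7.1e-05, exact permutation p = 0.00794, the smallest possible with 5 against 5). Gins2 and Pola2 followed, Gins2 with a log2 fold change of -0.96 (SE 0.25, edgeR adjusted p = 0.01). For Pola2, D2.1 tumors had 28.8, 35.2, 27.2, 46.2 and 27.2 CPM and D2A1 tumors 62.1, 73.8, 53.4, 55.9 and 61.4 CPM (log2 fold change -0.90, SE 0.18, edgeR adjusted p = 0.0017). For Tyms, the D2A1 tumors held 106, 127, 64.7, 70.4 and 61.01 CPM and the D2.1 tumors 44.2, 41.3, 52.4, 56.7 and 40.7 CPM (log2 fold change -0.87, SE 0.22, edgeR adjusted p = 0.008), with 2 D2A1 tumors well above the other 3. For Rrm1, values were 96.6, 109, 118, 115 and 132 CPM in D2A1 tumors and 88.9, 76.4, 110.1, 124 and 94.03 CPM in D2.1 tumors (log2 fold change -0.20, SE 0.16, edgeR adjusted p = 0.35). Of the licensing genes, Cdt1 and Orc5 were lower. For Cdt1, D2.1 tumors had 42.3, 44.9, 43.8, 50.3 and 36.5 CPM and D2A1 tumors 74.1, 70.9, 56.1, 74.4 and 69.5 CPM, without overlap (log2 fold change -0.66, SE 0.14, edgeR adjusted p = 0.0031). Cdc6 and Orc1, both lower in BALB/c tumors, overlapped here. For Cdc6, the D2A1 tumors held 16.2, 18.5, 16.7, 15.1 and 16.6 CPM and the D2.1 tumors 12.6, 9.56, 17.5, 23.4 and 13.2 CPM (log2 fold change -0.12, SE 0.23, edgeR adjusted p = 0.73). For Orc1, values were 3.16, 6.38, 4.11, 6.43 and 5.61 CPM in D2A1 tumors and 3.87, 3.17, 5.64, 7.58 and 5.98 CPM in D2.1 tumors (log2 fold change 0.04, SE 0.32, edgeR adjusted p = 0.94). For Orc3, D2.1 tumors had 25.7, 23.2, 35.8, 31.8 and 27.8 CPM and D2A1 tumors 23.99, 16.7, 27.7, 23.9 and 31.1 CPM (log2 fold change 0.23, SE 0.20, edgeR adjusted p = 0.41).

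Of the MCM core, Mcm2 and Mcm6 were lower in D2.1 tumors of SCID-beige mice. For Mcm2, the D2A1 tumors held 113, 141, 109, 113 and 128 CPM and the D2.1 tumors 87.95, 78.9, 80.8, 107 and 83.7 CPM, without overlap (log2 fold change -0.46, SE 0.14, edgeR adjusted p = 0.021). For Mcm5, values were 131, 173, 105, 120.5 and 123 CPM in D2A1 tumors and 73.5, 67.8, 111, 134 and 76.7 CPM in D2.1 tumors, with 1 D2.1 tumor above 4 of the 5 D2A1 tumors (log2 fold change -0.49, SE 0.21, edgeR adjusted p = 0.091). For Mcm7, D2.1 tumors had 136, 145, 129, 170 and 113 CPM and D2A1 tumors 157, 194, 107, 125 and 115 CPM (log2 fold change -0.01, SE 0.18, edgeR adjusted p = 0.97). Dbf4, Mcm10 and Gins2 were the helicase activation genes called lower. For Dbf4, the D2A1 tumors held 57.5, 60.3, 82.01, 68.1 and 84.2 CPM and the D2.1 tumors 42.1, 30.2, 53.8, 56.8 and 40.6 CPM (log2 fold change -0.65, SE 0.19, edgeR adjusted p = 0.019). For Gins4, values were 60.2, 59.4, 50.03, 38.7 and 35.04 CPM in D2A1 tumors and 49.2, 38.05, 39.9, 47.4 and 31.6 CPM in D2.1 tumors (log2 fold change -0.24, SE 0.19, edgeR adjusted p = 0.37). Pola2, Pold1 and Pold2 were the polymerase genes called lower, the latter pair with log2 fold changes of -0.42 ± 0.15 and -0.76 ± 0.23 (SE). For Pold3, D2.1 tumors had 27.7, 36.2, 28.2, 36.9 and 28.01 CPM and D2A1 tumors 32.8, 31.2, 32.3, 27.9 and 29.8 CPM (log2 fold change 0.03, SE 0.15, edgeR adjusted p = 0.90). None of the 11 clamp, loader, RPA and Okazaki fragment genes passed the threshold. Of them 2, Pcna and Rfc4, had an unadjusted p under 0.05, against 41.9% of all genes tested. For Pcna, the D2A1 tumors held 141, 189.8, 137, 138 and 152 CPM and the D2.1 tumors 98.1, 113, 145, 129 and 110 CPM (log2 fold change -0.34, SE 0.15, edgeR adjusted p = 0.10). For Rfc4, values were 23.1, 34.2, 19.2, 18.6 and 23.9 CPM in D2A1 tumors and 15.2, 13.4, 19.3, 22.6 and 14.2 CPM in D2.1 tumors (log2 fold change -0.49, SE 0.22, edgeR adjusted p = 0.11). For Rpa2, D2.1 tumors had 30.8, 27.6, 29.4, 34.1 and 20.1 CPM and D2A1 tumors 29.7, 33.1, 16.4, 21.3 and 17.96 CPM (log2 fold change 0.26, SE 0.23, edgeR adjusted p = 0.42).

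The 3 genes higher in D2.1 tumors of SCID-beige mice were E2f2, Orc6 and Gins3. For E2f2, the D2A1 tumors held 5.29, 8.47, 8.92, 8.53 and 9.27 CPM and the D2.1 tumors 19.5, 15.2, 15.5, 22.5 and 10.9 CPM, without overlap (log2 fold change 1.05, SE 0.24, edgeR adjusted p = 0.0039). For Orc6, values were 51.7, 58.5, 47.7, 40.1 and 46.1 CPM in D2A1 tumors and 84.3, 73.6, 92.3, 76.04 and 81.2 CPM in D2.1 tumors, also without overlap (log2 fold change 0.74, SE 0.14, edgeR adjusted p = 0.0015). Gins3 had a log2 fold change of 0.58 (SE 0.18, edgeR adjusted p = 0.028). E2f1 was not called: D2A1 tumors held 90.7, 109, 59.9, 79.03 and 68.7 CPM of E2f1 and D2.1 tumors 74.5, 62.97, 55.4, 76.9 and 50.98 CPM (log2 fold change -0.35, SE 0.19, edgeR adjusted p = 0.17). In culture, E2f1 was lower and E2f2 overlapped between the lines. E2f1 stood at 119.5, 118 and 105 CPM in D2A1 cultures and at 66.5, 78.4 and 61.6 CPM in D2.1 cultures (log2 fold change -0.73, SE 0.13, edgeR adjusted p = 0.002). E2f2 was counted at 10.4, 11.1 and 12.9 CPM in D2.1 cultures, against 10.9, 11.4 and 11.6 CPM in D2A1 cultures (log2 fold change 0.03, SE 0.16, edgeR adjusted p = 0.92). D2.1 replicate 4 was the highest of its group for 30 of the 48 genes and held the largest sum of epithelial markers (1233 CPM against 444 to 881 CPM in the other 9 tumors of this host). Without it, 21 of the 48 genes and 4916 of the 14638 genes tested were called.

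The 3 comparisons of the lines share no libraries. Orc5, Cdt1, Mcm6, Mcm10, Dbf4, Gins2, Pola2 and Rrm2 were lower in all 3, that is 8 of the 19 lower genes in culture, 8 of 24 in BALB/c mice and 8 of 12 in SCID-beige mice. The shares of all genes lower in all 3, or called in none, were not computed, so such counts are a description only. When 1 library was left out, Mcm6, Dbf4, Pola2 and Rrm2 kept the call in every fit of all 3 comparisons. In culture, Cdt1 kept it in 2 of 6 fits and Orc5 and Gins2 in 3 of 6, and in SCID-beige mice Mcm10 kept it in 5 of 10. With a GC term and no block in culture, 13 of the 48 and 2979 of 12489 genes were called, and Orc5, Mcm6, Dbf4 and Gins2 were not among them. Tyms, Mcm2 and Pold2 were lower in both hosts but not called in culture. Orc6 and E2f2 were higher in both hosts and close to 0 in culture, with log2 fold changes of -0.08 ± 0.22 and 0.03 ± 0.16 (SE). Orc3, Mcm7, Gins4, Prim1, Pold3, Rfc2, Rfc3, Rfc5, Rpa1, Rpa2, Rpa3, Fen1, Lig1 and Rrm1 were called in none of the 3, so that 8 of the 11 clamp, loader, RPA and Okazaki fragment genes belong to this group. For the remaining named genes in culture, D2A1 cultures held 189, 182 and 181 CPM of Dbf4 and D2.1 cultures 124, 141 and 89.3 CPM (log2 fold change -0.64, SE 0.17, edgeR adjusted p = 0.014). Rfc4 stood at 65.6, 63.5 and 45.98 CPM in D2A1 cultures and at 35.9, 33.03 and 28.1 CPM in D2.1 cultures (log2 fold change -0.85, SE 0.17, edgeR adjusted p = 0.0039). Both were lower without overlap. Of the 14 genes called nowhere, those with values here overlapped in culture, with the exception of Orc3. Mcm7 was counted at 285, 315 and 206 CPM in D2.1 cultures, against 316, 336 and 242 CPM in D2A1 cultures (log2 fold change -0.15, SE 0.19, edgeR adjusted p = 0.56). D2A1 cultures held 68.2, 72.3 and 60.2 CPM of Gins4 and D2.1 cultures 75.5, 80.2 and 68.9 CPM (log2 fold change 0.16, SE 0.12, edgeR adjusted p = 0.33). Pold3 stood at 40.9, 34.8 and 32.2 CPM in D2A1 cultures and at 30.5, 33.5 and 26.2 CPM in D2.1 cultures (log2 fold change -0.26, SE 0.15, edgeR adjusted p = 0.20). Rpa2 was counted at 53.1, 56.4 and 38.4 CPM in D2.1 cultures, against 55.3, 55.8 and 37.4 CPM in D2A1 cultures (log2 fold change -0.005, SE 0.20, edgeR adjusted p = 0.99). D2A1 cultures held 36.5, 34.3 and 35.5 CPM of Orc3 and D2.1 cultures 27.1, 31.9 and 30.5 CPM (log2 fold change -0.25, SE 0.13, edgeR adjusted p = 0.15).

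The comparison of hosts asked, within each line, whether the levels differed with the immune state of the mouse. Between BALB/c and SCID-beige hosts, 0 of the 48 genes were called in D2.1 tumors, where 0.891% of 14929 genes were called, and 0 in D2A1 tumors, where 1.17% of 14572 genes were called (edgeR, adjusted p under 0.05). At an unadjusted p under 0.05 there were 1 and 5 of the 48 genes, against 9.98% and 10.1% of all genes tested. The count in D2A1 is thus near the share over all genes. DESeq2 called 0 in D2.1, where it called 461 of 14929 genes. In D2A1 it called 1, E2f2, with its calls over all genes not given here. The median log2 fold change (BALB/c over SCID-beige) was -0.16 in D2.1, with 42 of 48 values negative, and 0.12 in D2A1, with 8 of 48 negative. The D2.1 median was -0.08 without SCID-beige replicate 4 and -0.10 without SCID-beige replicate 3, and the D2A1 median was 0.07 without BALB/c replicate 3. In D2A1 tumors E2f2 came nearest to the threshold, at 14.6 ± 1.78 CPM in 4 BALB/c and 8.09 ± 1.599 CPM in 5 SCID-beige tumors (log2 fold change 0.85, SE 0.20, edgeR adjusted p = 0.077). Mcm3, Mcm4, Cdc6 and Fen1 had an unadjusted p under 0.05 as well, with log2 fold changes of 0.37 ± 0.12, 0.45 ± 0.16, 0.47 ± 0.18 and 0.79 ± 0.32 (SE). In D2.1 tumors Cdc45 had the lowest unadjusted p (log2 fold change -0.63, SE 0.25, edgeR adjusted p = 0.40).

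In the interaction of line and host, 0 of the 48 genes and 0.0187% of 16036 genes were called by edgeR, and DESeq2 called 0 of the 48. An unadjusted edgeR p under 0.05 was found for 7 of the 48 and for 8.45% of all genes tested. The median of the interaction (line difference in BALB/c minus line difference in SCID-beige, log2) was -0.36 over the 48 genes and -0.06 over all genes, with 44 of 48 values negative. Orc1, Cdc6 and Mcm4 had the values farthest from 0, -0.99 ± 0.44, -0.90 ± 0.32 and -0.72 ± 0.28 (SE), with edgeR adjusted p of 0.54, 0.43 and 0.50.

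The line difference in tumors was then set against that in culture. For BALB/c tumors, 5 of the 48 genes had a line difference that differed from culture, where 14.4% of 15222 genes did (edgeR, adjusted p under 0.05). Rrm2, Cdc45, Mcm4 and Gmnn had a more negative line difference in tumors than in culture, by log2 values of -0.76 ± 0.23, -0.86 ± 0.22, -0.63 ± 0.20 and -0.92 ± 0.29 (SE), while that of Gins3 was -0.47 ± 0.14 in culture, called lower, and 0.40 ± 0.19 in tumors, not called (log2 difference 0.89, SE 0.23, edgeR adjusted p = 0.014). With the replicate block, 15 of the 48 were called, 11 negative and 4 positive, where 26.4% of all genes were, and fits that left out 1 library called 0 to 6. For SCID-beige tumors, 2 of the 48 genes differed from culture, where 12.8% of 15077 genes did. They were Gins3 (log2 difference 1.05, SE 0.25, edgeR adjusted p = 0.0071) and Orc6 (log2 difference 0.84, SE 0.25, edgeR adjusted p = 0.034), both positive. DESeq2 called 6 of the 48, all positive, and its calls over all genes are not given here. The median over the 48 genes was -0.26 in BALB/c and 0.14 in SCID-beige mice. The BALB/c median was -0.09 without D2A1 culture replicate 3, -0.17 without D2.1 culture replicate 1, -0.16 without D2.1 tumor replicate 3 and -0.15 without D2A1 tumor replicate 3. Without D2.1 culture replicate 3, the SCID-beige median was -0.02. Both comparisons use the same 6 culture libraries.

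Nearly all of the 48 genes were lower in tumors than in culture, in both lines. With 1 TMM scaling over all 24 libraries, every tumor lay below every culture for 40 of 48 genes in D2.1 and 41 of 48 in D2A1, against 17.6% and 18.5% of 15736 genes. The median log2 ratio of tumor to culture was -1.18 in D2.1 and -1.21 in D2A1, and 0.18 and 0.21 over all genes. Rrm2 had the largest drop, from a mean of 279.9 to 37.5 CPM in D2.1 (log2 ratio -2.90) and from 600.2 to 113 CPM in D2A1 (-2.41), and Mcm4 had log2 ratios of -2.26 and -2.01. The exceptions shared by both lines were Orc3, Rfc2, Fen1 and E2f2, and the others were Orc6, Gins3, Pold3 and E2f1 in D2.1 and Orc5, Pold2 and Rfc3 in D2A1. These values carry no test, because the 2 tables were counted with different gene models and because whole tumors hold host cells, whose part was not tested.

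Levels of the subunits of 1 complex were compared within a library, where depth cancels. The ratio of Rrm2 to Rrm1 counts was 1.90, 1.88 and 1.82 in the D2A1 cultures and 0.93, 0.80 and 0.71 in the D2.1 cultures. In BALB/c mice it was 1.04, 0.93, 0.94 and 1.04 in D2A1 tumors and 0.33, 0.37, 0.40 and 0.41 in D2.1 tumors. In SCID-beige mice it was 0.95, 0.95, 0.93, 0.93 and 0.86 in D2A1 tumors and 0.39, 0.38, 0.49, 0.40 and 0.38 in D2.1 tumors, below 0.5 in each D2.1 tumor of either host. The ratio was chosen after the values of both genes were seen and carries no test. Gene models differ between cultures and tumors and do not cancel in it, so it compares the lines within a setting, not tumors with cultures. The MCM subunits, which form a ring with 1 copy of each, were not equal in length-scaled level (FPKM, mean ± SD). In D2A1 tumors in BALB/c mice (n = 4), Mcm7 had 137 ± 22.6, Mcm2 112 ± 5.83, Mcm5 76.3 ± 8.31, Mcm6 73.5 ± 16.7, Mcm3 71.7 ± 4.68 and Mcm4 52.2 ± 6.899 FPKM. In D2.1 tumors in BALB/c mice (n = 4), Mcm7 had 120.2 ± 13.8, Mcm2 64.9 ± 2.08, Mcm3 40.5 ± 3.33, Mcm6 38.4 ± 5.699, Mcm5 37.3 ± 5.37 and Mcm4 28.9 ± 4.11 FPKM. Mcm7 and Mcm2 led and Mcm4 was last in both, whereas Mcm3, Mcm5 and Mcm6 lay within their spread of each other. The length behind the FPKM of Mcm7 was 1067 bases in the tumor table and 2962 in the culture table, and that of Mcm2 1333 and 3370. Lengths of the other subunits differed as well, so these ranks depend on the gene model. In culture (n = 3), Mcm5 led with 121 ± 22.7 FPKM in D2A1 and 95.8 ± 10.8 FPKM in D2.1, and Mcm6 had 75.5 ± 3.98 and 38.7 ± 5.58 FPKM.

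**Figure D4:**
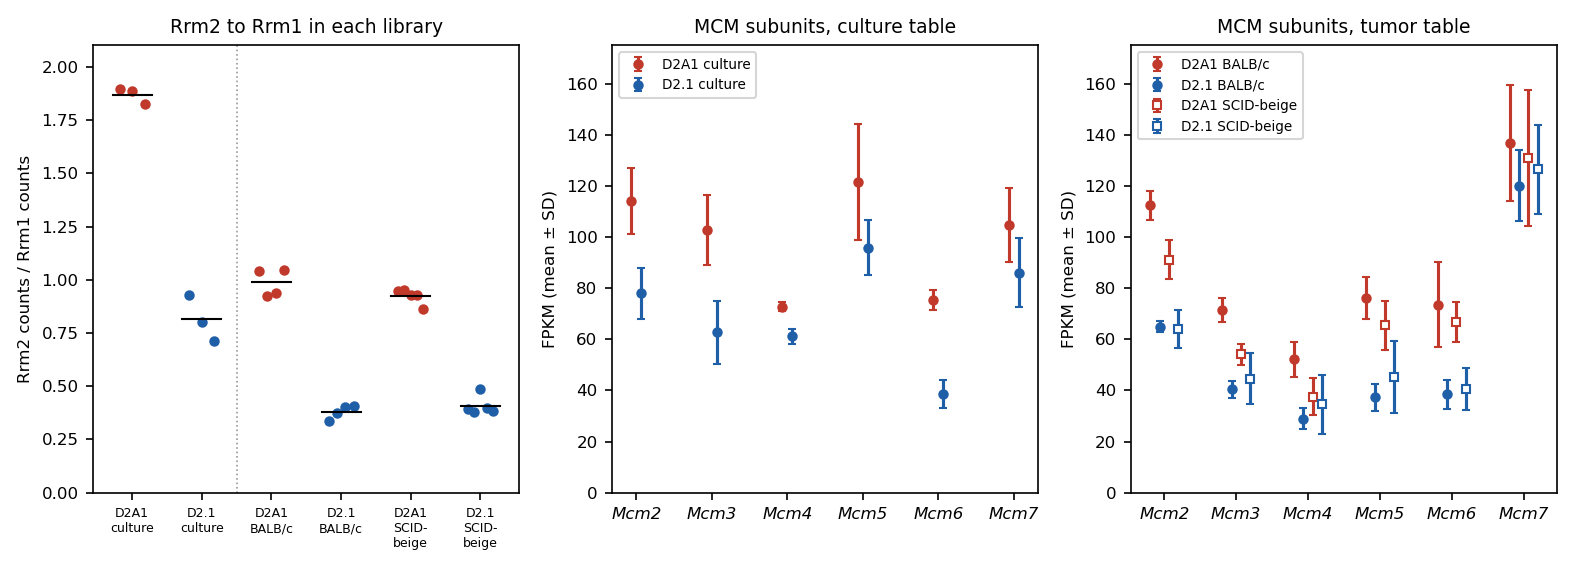
Left, the ratio of Rrm2 to Rrm1 counts (y axis) in each of 24 libraries with bars at the group means, to be read within cultures and within tumors only. Middle and right, FPKM of the 6 MCM subunits (mean ± SD) in cultures (n = 3 per line) and in tumors (n = 4 per line in BALB/c, filled, and 5 in SCID-beige mice, open), where Mcm7 is the highest subunit in every tumor group.

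Genes that work beside the 48 were described from lists by role. Over all genes tested, 20.7% were lower and 44.9% called in either direction in culture, 15.8% and 32.6% in BALB/c tumors, and 14.8% and 32.1% in SCID-beige tumors. Of 18 genes of purine and pyrimidine base synthesis, 10 were lower in cultured D2.1 cells, 14 in D2.1 tumors in BALB/c mice and 9 in SCID-beige mice, and 0 were higher in any of the 3, so 55.6%, 77.8% and 50% were lower. Impdh1, a step of guanine nucleotide synthesis, and Cad, which starts pyrimidine synthesis, led in culture with log2 fold changes of -1.85 ± 0.12 and -1.14 ± 0.14 (SE). In BALB/c tumors Gart, an enzyme of purine synthesis, and Cad led with -1.42 ± 0.16 and -1.36 ± 0.17, and in SCID-beige tumors Impdh1 and Cad with -1.41 ± 0.18 and -1.02 ± 0.15. Of 10 other deoxynucleotide genes, 3, 3 and 2 were lower and 0 higher. These shares (30%, 30% and 20%) lie above those of all genes called lower and below those called in either direction. Shmt1 and Dctd led in culture (-1.22 ± 0.24 and -0.75 ± 0.22), and Dctd, which makes deoxyuridylate for Tyms, in both hosts (-1.75 ± 0.18 in BALB/c and -1.27 ± 0.18 in SCID-beige mice, SE), followed by Shmt1 in BALB/c (-1.14 ± 0.17) and Dut in SCID-beige mice (-1.02 ± 0.18).

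Of 25 other replication fork genes, 10 were lower and 2 higher in culture, 4 lower and 1 higher in BALB/c tumors, and 1 lower and 4 higher in SCID-beige tumors. The share called in either direction was 48% in culture, close to that over all genes, and 20% in each host, below it. The share called lower was 40% in culture, above that over all genes, 16% in BALB/c tumors, near it, and 4% in SCID-beige tumors, below it. The small polymerase delta subunit Pold4 (2.60 ± 0.19) and the MCM relative Mcm9 (1.23 ± 0.18) were the 2 higher genes in culture. Mcm9 was higher in both hosts too (0.78 ± 0.21 and 0.92 ± 0.21), with Wdhd1 lower in BALB/c (-0.75 ± 0.26) and the histone chaperone Asf1b higher in SCID-beige mice (0.89 ± 0.17). Of 11 other E2F and pocket protein genes, 4 were lower and 0 higher in culture, 6 lower and 1 higher in BALB/c tumors, and 1 lower and 2 higher in SCID-beige tumors. That is 36.4%, 63.6% and 27.3% called in either direction, below the share over all genes in culture and in SCID-beige tumors, and 36.4%, 54.5% and 9.09% lower. Rbl2, a pocket protein of non-dividing cells, was higher in D2.1 tumors of both hosts, by 1.43 ± 0.29 and 1.10 ± 0.27 on the log2 scale (SE, edgeR adjusted p = 0.0038 and 0.007). The repressor E2f8 was lower in BALB/c tumors (-1.09 ± 0.28), its relative E2f7 was higher in SCID-beige tumors (0.93 ± 0.20), and in culture E2f6 and the pocket protein Rbl1 were lower (-1.67 ± 0.14 and -0.63 ± 0.15). Of 20 mitosis genes, 5 were lower and 2 higher in culture, 9 lower and 0 higher in BALB/c tumors, and 1 lower and 0 higher in SCID-beige tumors. That is 25%, 45% and 5% lower, near the share over all genes in culture and under it in SCID-beige tumors. Cenpf (-0.61 ± 0.14) and the checkpoint kinase Bub1 (-0.55 ± 0.11) had the largest falls in culture, and Bub1 (-1.14 ± 0.35) and the spindle kinase Aurka (-0.998 ± 0.16) in BALB/c tumors, while Aurka (-0.68 ± 0.20) was the 1 gene called in SCID-beige tumors. Against the line difference in culture, Pold4 stood apart in both hosts, by -2.19 ± 0.42 in BALB/c and -1.996 ± 0.27 in SCID-beige mice (log2, SE), as did Asf1b (1.04 ± 0.28 and 1.39 ± 0.24) and Dut (-1.05 ± 0.28 and -0.99 ± 0.28). In BALB/c mice Dctd (-0.98 ± 0.29), the folate enzymes Shmt2 (-0.88 ± 0.28) and Mthfd1 (-0.65 ± 0.21), E2f8 (-1.29 ± 0.37), the E2F partner Tfdp1 (-1.08 ± 0.27) and the mitotic genes Plk1 (-0.91 ± 0.23) and Ccnb2 (-0.85 ± 0.27) had negative differences, and in SCID-beige mice E2f7 (1.11 ± 0.25) and E2f6 (0.91 ± 0.20) had positive differences.

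The fold changes were also split by the E2F motif in the promoter window, with no test. In culture, 5 of 16 genes with the motif and 11 of 24 without it were lower, with median log2 fold changes of -0.29 and -0.40. In BALB/c tumors, 6 of 16 and 13 of 24 were lower (medians -0.38 and -0.73), and in SCID-beige tumors 3 of 16 and 8 of 24 (medians 0.01 and -0.36). E2f2, higher in the tumors of both hosts, holds the motif itself, while Rrm2, Tyms, Orc6 and Pola2 hold none in the window.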

How the data were processed

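RNA-seq libraries came from 6 cultures and 18 tumors. The authors deposited raw counts per gene and, from the same reads, FPKM, in one table for cells and one for tumors. STAR and mm10 are named in the submitters' processing notes, and sequencing was done on an Illumina NovaSeq instrument. The counting program, annotation and strand setting are not given in the sources used here. In both tables the deposited FPKM equalled the counts over a fixed gene length and the library total for 100% of genes (within 0.001), but that length differed between the tables (median ratio 1.45, cells over tumors), so FPKM were compared within a table only. Identifiers without a symbol held 0.0969% of counts in cells and 0.0446% in tumors. Libraries were compared within groups only, and no 2 libraries of a group were copies of each other. D2A1 cultures 1 and 2 were the closest pair, with a chi-square of their counts per degree of freedom of 4.96. It was 18.6 or more for every other pair within a group.

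Counts were tested by edgeR 4.0.16 (R 4.3.3; filterByExpr, TMM, robust quasi-likelihood fit) with Benjamini-Hochberg adjustment over all genes tested, at a threshold of 0.05, with only the groups of the comparison in each fit. DESeq2 1.42.0 was an alternative, as were other size factors, filters, a replicate block, a GC term per library and leaving out each library. The GC term without the block and the fits without D2.1 replicates 1 and 4 in BALB/c mice were chosen after seeing the data. Differences between tumor and culture contrasts were fitted on genes listed in both tables (34519). The scripts were tested on simulated counts. FPKM and ratios were described with mean and SD and no test.

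The members and lists were chosen with earlier results of these data known. Values in every library are given, per role group, for the gene with the largest and the gene with the smallest fold change in BALB/c tumors, for Mcm2, Orc1, Cdc6, Cdt1, Pcna, Rrm2, Tyms and E2f1, and, in some comparisons, for Pola1, Orc6 and Gins3, chosen after their values were seen. The 3 largest called rises and falls of each other comparison and the 2 largest called changes of each related list are named.

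Whether equal replicate numbers pair the libraries was checked on deviations from the group means across genes. Every pair with equal numbers correlated above 0.1 in culture (0.184 to 0.491) and in BALB/c tumors (0.1004 to 0.491). Some libraries correlated more with another number, and the labels name no shared day or batch. In SCID-beige tumors (-0.16 to 0.34) and between hosts, pairs with equal numbers did not all correlate above 0.1.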

Additional observations from a re-analysis of the deposited data

Results flagged for a closer look

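Of 76 sets of tumor values examined for a library that stands apart (Dixon's 95% limit, which chance exceeds in about 1 of 20 sets), 4 exceeded it, all in D2A1 tumors. In SCID-beige mice, D2A1 replicate 3 had 56.09 CPM of Cdt1, below the other 4, D2A1 replicate 2 had 189.8 CPM of Pcna, above the other 4, and D2A1 replicate 1 had 5.293 CPM of E2f2, below the other 4. In BALB/c mice, D2A1 replicate 3 had 86.22 CPM of E2f1, above the other 3.

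The line difference in BALB/c tumors differed from that in culture, by the test of the difference itself (edgeR, adjusted over all genes), for Gmnn (-0.925 on the log2 scale, adjusted p = 0.044), Mcm4 (-0.633, 0.041), Cdc45 (-0.858, 0.016), Rrm2 (-0.761, 0.041) and Gins3 (0.89, 0.014). In SCID-beige tumors the same test called Orc6 (0.839, adjusted p = 0.034) and Gins3 (1.055, 0.0071). Whole tumors hold host cells and cultures do not, and the part of host cells in these differences was not tested.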

How the results depend on the processing

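The counts of called genes in the 3 comparisons of the lines stayed within 1.5 times under other size factors, low-count filters, DESeq2, 1 fit of all tumors and a minimum log2 change of 0.5. The replicate block raised the calls in culture from 19 to 29, and the block with the GC term lowered them in BALB/c tumors from 26 to 0 and in SCID-beige tumors from 15 to 4. Calls over all genes moved the same way, from 5602 to 7539, from 4868 to 439 and from 4607 to 2614. In that fit Cdt1 in BALB/c tumors had a log2 fold change of 0.045, the 1 reversal among all values computed for called genes. The fit kept 2 residual degrees of freedom in BALB/c tumors, against 6. In SCID-beige tumors, where equal numbers were not taken as pairs, the block alone gave 16 calls. Over all 14355 genes tested it gave 5310 calls, against 4607 without it. Not every library correlated best with its own number in any of the 3 comparisons. The GC term without the block gave 13 calls in culture, against 19, and 2979 calls over all genes, against 5602. Between hosts in D2A1, DESeq2 called 1 gene and the GC term without the block 3, against 0, with their calls over all genes not given here.

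The difference between BALB/c tumors and culture called 5 genes, but 2 with DESeq2 size factors, 1 without a filter, 15 with the replicate block, 16 with the block and GC term, 12 with the GC term alone and 3 without D2.1 replicates 1 and 4. The block also raised the calls over all genes tested, from 14.4% to 26.4%. Leaving out 1 library gave 0 to 6, with 0 without D2.1 culture replicate 1 and at most 3 without any of D2.1 culture replicate 2, the 3 D2A1 cultures, D2.1 tumor replicates 1 and 3 and D2A1 tumor replicates 1, 2 and 4. The difference between SCID-beige tumors and culture called 2 genes, but 6 with DESeq2, 3 with DESeq2 size factors in edgeR, 1 without a filter, 5 with the replicate block, 0 with the block and GC term and 4 with the GC term alone. Leaving out 1 library gave 1 to 5, with 5 without D2.1 tumor replicate 2 or D2A1 tumor replicate 5, and 1 without D2.1 culture replicate 3, D2A1 culture replicates 1 and 2, D2.1 tumor replicates 1 and 3 or D2A1 tumor replicates 3 and 4. Leaving out 1 library gave 14 to 24 calls in culture, 22 to 26 in BALB/c tumors and 11 to 21 in SCID-beige tumors, the last without D2.1 replicate 4, and 0 in the comparisons of hosts and in the interaction of line and host. Calls over all genes also change with the setting and are not all given here, so these counts are a description only. Causes were not tested.

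Among fold changes of single genes under the alternatives, 557 of those in culture kept their direction and side of the threshold, 31 gained and 36 lost the call. In BALB/c tumors 737 kept it, 21 gained and 57 lost it, and in SCID-beige tumors 818, 13 and 33. The lowest levels here, of Fen1, Orc1 and E2f2, rest on the fewest counts, and intervals from counting alone would understate the spread between tumors.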

Other observations

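Per gene length, the licensing genes were ranked within each group only, since the lengths differ between the tables. Orc1 had the lowest mean FPKM in 5 of them and Cdc6 in the D2.1 tumors of SCID-beige mice, while Cdt1 was highest in both cultures and in the D2A1 tumors of both hosts. In D2.1 tumors Orc6 was highest, at 71.5 ± 15.4 FPKM (SD, n = 4) in BALB/c and 81.5 ± 8.99 FPKM (n = 5) in SCID-beige mice, against 25.2 ± 5.25 and 31.1 ± 3.34 FPKM of Cdt1. In D2A1 tumors both were close, with 48.6 ± 5.59 and 50.3 ± 4.78 FPKM of Orc6 and 52.9 ± 8.34 and 50.9 ± 5.21 FPKM of Cdt1. These are descriptions chosen after the values were seen, with no test.

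Within groups, 1 library often led for many of the 48 genes. D2.1 replicate 4 was the highest of 4 BALB/c tumors for 24 genes, D2A1 replicate 2 the highest of 5 SCID-beige tumors for 24 genes and D2A1 replicate 3 the highest of 4 BALB/c tumors for 22 genes. D2.1 replicate 1 in BALB/c mice, the library with milk protein transcripts, was the lowest for 16.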
